A study of Mus musculus with 24 samples.

Results

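The genes of the mouse major histocompatibility complex (MHC), called H2, and their partners in antigen presentation were followed in the mammary gland. They were taken as every non-control probe whose gene name on the array starts with H2-, together with the probes of Cd74, B2m, Ciita, Tap1, Tap2, Tapbp, Psmb8, Psmb9, Psmb10, Nlrc5 and Cd1d1. The rule used no measured value. It gave 95 probes of 54 genes, of 56605 probes of 36591 genes on the array. A filter on dim probes left 66 probes of 42 of these genes, of 35117 probes of 22382 genes in all.

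All animals were C57BL/6 females, and tissue came from the inguinal (number 4) gland with its lymph node removed. The groups were 5 mice homozygous for the R96C SOCS2 knock-in allele and 5 wild-type mice, both at day 18 of pregnancy, and 7 knock-in and 7 wild-type virgins aged 8 weeks. The labels give no treatment and no age for the day-18 mice, so pregnancy and age cannot be told apart. SOCS2 is a suppressor of cytokine signalling that acts on growth hormone and prolactin receptors, and the study asked what the change of 1 amino acid does to gland development and function. The knock-in allele is carried by every cell of these mice.

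Each mouse has 1 array of 1 colour, and the 24 arrays lie on 3 slides that each hold all 4 groups. Values are log2 signals relative to the array's own 75th percentile, so 0 is the level of that percentile and a difference of 1 is a 2-fold change. Errors are standard deviations (SD) after a mean and standard errors (SE) after a difference. A gene was called where limma's moderated test gave a Benjamini-Hochberg adjusted p under 0.05 over all 22382 genes, and adjusted p-values below are of that kind. The array of knock-in virgin 376 stood apart, with a median signal of its negative controls of 339, where the others had 27.8 to 50.1, and with 57003 spots well above background, where they had 33374 to 43055. The array of knock-in day-18 mouse 184 had the highest values among the others in both. The counts of members called are therefore given with all 24 arrays and again with the 22 that remain without these mice. Other values are of all 24 arrays where 22 are not named. The 7 milk protein genes tested were all called higher at day 18 in both genotypes, with median differences of 9.02 in wild-type and 11.80 in knock-in glands, as the stage labels say. Socs2 itself averaged 1.38 ± 0.22 in knock-in and 1.33 ± 0.29 in wild-type day-18 glands, and 1.00 ± 0.74 in knock-in and 1.59 ± 0.96 in wild-type virgins; the array reads its level and not the changed amino acid, so it checks no genotype label.

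As background, class I molecules are heavy chains paired with B2m that show peptides from inside the cell to CD8 T cells. Proteasome subunits Psmb8, Psmb9 and Psmb10 cut those peptides, Tap1 and Tap2 carry them into the endoplasmic reticulum, and Tapbp (tapasin) helps load them. Class II molecules are pairs of an alpha and a beta chain that show peptides from endocytosed material to CD4 T cells, mostly on dendritic cells, macrophages and B cells. Cd74, the invariant chain, holds the class II groove closed, H2-DM exchanges what is left of it for peptide and H2-O restrains H2-DM. Nlrc5 and Ciita are the transactivators of class I and class II genes. They act through boxes called X and Y close to the start of their target genes.

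Most member probes, 80 of 95, lie on chromosome 17 of mm9, 4 on chromosome 16 (Ciita), 3 on chromosome 8 (Nlrc5, Psmb10), 2 on chromosome 2 (B2m) and 1 on chromosome 3 (Cd1d1). The Cd74 probe lies elsewhere and is not printed, and 4 probes have no position in the files. Class I heavy chains are close copies of each other, and 6 pairs of probes of different genes share a run of 20 bases or more. The probes that share the most are shown because they limit which class I genes can be told apart. Each is 60 bases long, and the capitals mark the run of 29 bases in the first 3 probes and of 35 bases in the other two.
H2-K1 probe, chr17:34133984-34134043: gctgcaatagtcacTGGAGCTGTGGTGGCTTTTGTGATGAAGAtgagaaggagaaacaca
H2-L probe, chr17:35403191-35403250: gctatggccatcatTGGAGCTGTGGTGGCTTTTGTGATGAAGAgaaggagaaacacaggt
H2-T23 probe, chr17:36167338-36167574: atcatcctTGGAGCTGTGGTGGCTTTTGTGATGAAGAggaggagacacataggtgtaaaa
H2-Q2 probe, chr17:35482113-35482172: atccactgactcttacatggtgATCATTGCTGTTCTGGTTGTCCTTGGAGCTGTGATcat
H2-T-ps probe, chr17:36246598-36246657: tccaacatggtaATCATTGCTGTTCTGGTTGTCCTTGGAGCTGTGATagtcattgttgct
The H2-K1 probe shown is the dimmer of 2 probes for that gene. H2-L is a gene that the b haplotype of C57BL/6 mice lacks, yet its probe read 5.53 to 6.33 in knock-in and 5.44 to 6.10 in wild-type day-18 glands, and was well above background on all 24 arrays. Values of H2-L, H2-Q2, H2-Q8, H2-T23 and H2-T-ps, whose probes are in these pairs, are therefore uncertain as to which gene they measure. The H2-K2 probe is in none of the pairs, but H2-K2 and other class I copies may be uncertain in the same way.

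RefSeq promoters (build GRCm38.p6) were matched for 37 of the 54 genes. The boxes of the transactivators were looked for in 300 bases around each start, on both strands, and their share is given over all 32851 promoters in the table. The Y box ATTGG stood in promoters of 32 member genes and in 37.4% of all promoters. The X2 box TGACG stood in those of 14 member genes and in 20.8% of all. The longer X box, CTAG, 1 free letter, AAC, 1 free letter and GATG, stood in those of 2 member genes, H2-DMb1 and H2-Eb1, and in 0.0304% of all, which is 10 promoters. TGACG placed 25 or 26 bases before ATTGG occurred in 54 promoters, or 0.164%, of which 5 were of members (B2m, H2-Aa, H2-D1, H2-K1 and H2-M3). The kappa B motif, GGGGA followed by TTCCCC, stood in promoters of H2-D1, H2-K1 and H2-Q6 and in 0.0304% of all. The interferon response motif, GAAA, 2 free letters and GAAA again, stood in those of B2m and H2-T23 and in 3.44% of all. Of these promoters 6 are shown from 180 bases before the start to 25 after it, because they hold the boxes in genes whose levels behaved differently below. The capitals mark the motifs named here, on either strand.
H2-DMb1, chr17:34153011-34153215, plus strand: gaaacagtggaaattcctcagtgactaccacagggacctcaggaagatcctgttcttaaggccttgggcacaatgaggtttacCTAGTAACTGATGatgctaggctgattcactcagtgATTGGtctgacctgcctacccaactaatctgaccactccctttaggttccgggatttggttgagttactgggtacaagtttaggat
H2-Eb1, chr17:34305687-34305891, plus strand: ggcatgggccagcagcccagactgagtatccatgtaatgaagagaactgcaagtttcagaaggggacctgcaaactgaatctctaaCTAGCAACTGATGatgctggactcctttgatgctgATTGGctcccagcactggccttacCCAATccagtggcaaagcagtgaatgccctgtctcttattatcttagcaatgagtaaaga
H2-Aa, chr17:34287799-34288003, minus strand: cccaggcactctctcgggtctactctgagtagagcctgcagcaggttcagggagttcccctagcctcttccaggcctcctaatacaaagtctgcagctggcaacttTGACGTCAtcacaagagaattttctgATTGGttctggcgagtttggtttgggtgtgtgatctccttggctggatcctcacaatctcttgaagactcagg
H2-M3, chr17:37270054-37270258, plus strand: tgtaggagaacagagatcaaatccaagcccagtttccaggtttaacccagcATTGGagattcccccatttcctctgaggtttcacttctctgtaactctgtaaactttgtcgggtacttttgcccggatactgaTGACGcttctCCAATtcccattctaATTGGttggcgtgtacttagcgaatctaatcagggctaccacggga
H2-K1, chr17:34000323-34000527, minus strand: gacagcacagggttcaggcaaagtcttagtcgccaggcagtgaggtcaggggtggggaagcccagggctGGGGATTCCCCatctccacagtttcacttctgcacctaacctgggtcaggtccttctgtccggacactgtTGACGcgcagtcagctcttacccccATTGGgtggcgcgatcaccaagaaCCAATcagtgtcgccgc
B2m, chr2:122147507-122147711, plus strand: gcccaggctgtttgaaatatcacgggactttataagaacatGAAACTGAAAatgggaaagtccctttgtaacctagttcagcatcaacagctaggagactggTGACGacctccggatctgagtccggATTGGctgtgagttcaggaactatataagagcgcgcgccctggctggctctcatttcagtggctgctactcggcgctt
In H2-DMb1 the X box begins 97 bases and the Y box 61 bases before the start, and in H2-Eb1 94 and 59 bases before it. A match describes these letters only and shows no binding.

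With 24 and with 22 arrays, the share of members called between the stages was below that of all genes tested. In wild-type glands 11 of the 42 genes were called, 1 higher and 10 lower at day 18, which is 26.2% of them against 41.9% of all genes tested. With 22 arrays these were 20 of 42, 6 higher and 14 lower, or 47.6% against 59.3%. In knock-in glands 9 of 42 were called, 2 higher and 7 lower, or 21.4% against 43.1%. With 22 arrays these were 19, 4 higher and 15 lower, or 45.2% against 55.6%. Every gene called with 24 arrays was called in the same direction with 22. The median difference of the 42 genes was −0.20 in wild-type and −0.02 in knock-in glands, and that of all genes 0.02 and 0.04 with 24 arrays. With 22 arrays the members' medians were −0.20 and −0.28.

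The class II genes behaved in different ways at day 18. With 24 arrays H2-Ob was called lower in both genotypes, H2-DMb1 and Ciita in wild-type glands and H2-DMa in knock-in glands; with 22 arrays these 4 loading and regulating genes were called lower in both genotypes. No difference was called for the chains of the class II molecule itself, H2-Aa, H2-Ab1 and H2-Eb1, or for Cd74, on the probe that stands for each gene. With 22 arrays 1 of the 4 H2-Ab1 probes was called lower in each genotype. The 4 then ran from −0.72 to −0.29 in wild-type and from −0.90 to −0.27 in knock-in glands. Of the 10 class II genes kept, 4 were called lower in wild-type and 3 in knock-in glands with 24 arrays, and none higher in either. These counts include H2-DMb2, which passed the filter through the virgins alone, so its call is no support. With 22 arrays 5 were lower in each genotype and H2-Oa was higher in wild-type glands. H2-Ea, whose promoter is deleted in C57BL/6 mice, was well above background on only 2 of 24 arrays, both of knock-in virgins, and did not pass the filter. H2-Eb2 did not pass either.

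H2-Ab1 encodes the beta chain of the class II molecule I-A (probe at chr17:34406296-34406355, mm9). It read 5.66, 5.91, 6.08, 6.00 and 6.14 in wild-type day-18 glands, against 5.89 to 7.14 (median 6.03) in wild-type virgins. Knock-in day-18 glands read 6.48, 5.72, 5.92, 5.80 and 6.16, against 4.28 to 6.74 (median 6.28) in knock-in virgins, where mouse 376 was the lowest. The groups overlapped throughout. The differences were −0.29 ± 0.31 in wild-type glands (95% interval −0.94 to 0.35, adjusted p = 0.485) and −0.04 in knock-in glands (−0.68 to 0.60, adjusted p = 0.934).

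H2-Aa, the alpha chain of I-A (chr17:34421285-34421344), read 1.84, 1.98, 2.56, 2.52 and 2.64 in wild-type day-18 glands, against 2.20 to 3.84 (median 2.39) in wild-type virgins. Its difference there was −0.42 ± 0.36, with an interval of −1.15 to 0.32, and in knock-in glands it was −0.31. H2-Eb1, the beta chain of I-E (chr17:34453075-34453134), read 5.37, 5.73, 5.82, 5.75 and 5.80 in wild-type day-18 glands, against 5.54 to 6.83 (median 5.82) in wild-type virgins. Both genes overlapped between stages in both genotypes. Cd74 read 4.48, 4.76, 4.98, 4.76 and 4.91 in wild-type day-18 glands, against 4.48 to 5.95 (median 4.71) in wild-type virgins, a difference of −0.18 ± 0.31 (interval −0.83 to 0.47). In knock-in glands Cd74 read 5.29, 4.53, 4.72, 4.62 and 5.12 at day 18, against 3.28 to 5.53 (median 5.08) in virgins, and the difference was 0.02. Its highest value in wild-type virgins was that of mouse 369, which was also highest in that group for 9 of the 10 class II genes.

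Which of these chains was called depended on the scaling. With quantile normalization H2-Ab1 was called lower at day 18, at −0.79 in wild-type (adjusted p = 0.00341) and −0.67 in knock-in glands (0.0103), and so was H2-Eb1, at −0.73 (0.00812) and −0.61 (0.0253). H2-Aa and Cd74 were not called with it, at −0.54 and −0.49 in wild-type glands. Scaling on the spike-in probes moved the median of all genes to −0.91 in wild-type and −0.78 in knock-in glands, and H2-Ab1 to −1.21 and −0.87. With median scaling H2-Ab1 was −0.10 in wild-type and 0.17 in knock-in glands, with medians of all genes of 0.21 and 0.25.

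H2-DMb1, a beta chain of the peptide exchanger H2-DM (chr17:34297109-34297168), read 1.63, 1.81, 1.87, 1.91 and 1.83 in wild-type day-18 glands, against 2.31 to 3.31 (median 2.73) in wild-type virgins. No day-18 value reached the virgin range. The difference was −0.87 ± 0.25 (adjusted p = 0.00679). In knock-in glands H2-DMb1 read 2.09, 1.71, 1.72, 1.98 and 1.88 at day 18, against 1.11 to 3.03 (median 2.33) in virgins, and the lowest virgin was mouse 376. The difference of −0.55 ± 0.25 was not called with 24 arrays (adjusted p = 0.0809). With 22 it was −0.72 ± 0.19 (adjusted p = 0.00252) and the groups were apart.

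H2-DMb2, the second H2-DM beta gene (chr17:34284764-34284823), was well above background on 0 of 5 day-18 arrays in each genotype, against 6 of 7 knock-in and 7 of 7 wild-type virgins. It passed the filter through the virgins alone and had to read lower at day 18, so its values are a description. The bound was at least 1.76-fold lower at day 18 in knock-in and at least 1.64-fold lower in wild-type glands, and at least 1.61-fold in knock-in glands with 22 arrays. It compares the virgin mean with the dimmest signal that counted as well above background on each day-18 array. The measured values were −7.28, −6.14, −6.47, −5.93 and −7.29 in wild-type day-18 glands, against −5.30 to −3.42 (median −4.50) in wild-type virgins. With normexp background correction the wild-type difference was 0.05, so the direction depended on the background step.

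H2-DMa, the alpha chain of H2-DM (chr17:34274300-34274863), varied more among day-18 mice. Knock-in day-18 glands read 0.27, −1.51, 0.31, −1.60 and −0.06, against −0.04 to 0.99 (median 0.65) in knock-in virgins. The day-18 range overlapped that of the virgins, with 3 of its 5 values below it. The difference was −1.09 ± 0.35 (adjusted p = 0.0133) in knock-in glands and −0.79 ± 0.35 (adjusted p = 0.0704) in wild-type glands, and with 22 arrays both were called (adjusted p = 0.00557 and 0.049). In wild-type glands H2-DMa read −1.05, −0.44, −0.03, −0.16 and −0.16 at day 18, against −0.08 to 1.51 (median 0.19) in virgins.

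The 2 chains of H2-O did not move together. H2-Ob, its beta chain (chr17:34380481-34380849), read −5.61, −5.09, −4.48, −4.42 and −4.67 in wild-type day-18 glands, against −3.70 to −3.0 (median −3.23) in wild-type virgins, with no overlap. The difference was −1.49 ± 0.47 in wild-type (adjusted p = 0.0127) and −1.53 ± 0.47 in knock-in glands (adjusted p = 0.0106). In knock-in glands it read −4.62, −5.11, −2.91, −4.66 and −4.71 at day 18, against −4.40 to −0.76 (median −3.27) in virgins, where the value of −2.91 is that of mouse 184 and −0.76 that of mouse 376. With normexp the wild-type difference was −0.21 and not called (adjusted p = 0.524). H2-Oa, the alpha chain (chr17:34232033-34232092), read −2.82, −2.65, −2.42, −2.72 and −2.42 in wild-type day-18 glands, against −4.25 to −2.74 (median −3.40) in wild-type virgins. Its difference was 0.88 ± 0.41 (adjusted p = 0.0883), called higher with 22 arrays (adjusted p = 0.0227) and turned to −0.04 by spike-in scaling. In knock-in glands it was 0.42 (adjusted p = 0.436).

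Ciita, the class II transactivator (chr16:10526458-10526517), read 0.27, 0.41, 0.38, 0.41 and 0.20 in wild-type day-18 glands, against 0.78 to 1.55 (median 0.95) in wild-type virgins, with no overlap. The difference was −0.72 ± 0.27 (adjusted p = 0.0394). The knock-in values were 0.97, 0.37, 0.27, 0.27 and 0.65 at day 18, against −0.39 to 1.96 (median 1.04) in knock-in virgins. Their difference, −0.57 ± 0.27, was not called (adjusted p = 0.098). With 22 arrays both were called (adjusted p = 0.00258 in wild-type and 0.00386 in knock-in glands). Another Ciita probe (chr16:10492271-10492327) was lower by more, at −1.76 in wild-type (adjusted p = 5.1e-05 over all 35117 probes) and −1.60 in knock-in glands (1.42e-04). It was dim, at −6.36 to −4.62 in wild-type day-18 glands and −3.96 to −3.17 in wild-type virgins. The 3 Ciita probes kept ran from −1.76 to −0.71 in wild-type and from −1.60 to −0.57 in knock-in glands, with 2 called lower in each genotype with 24 arrays.

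**Figure D1:**
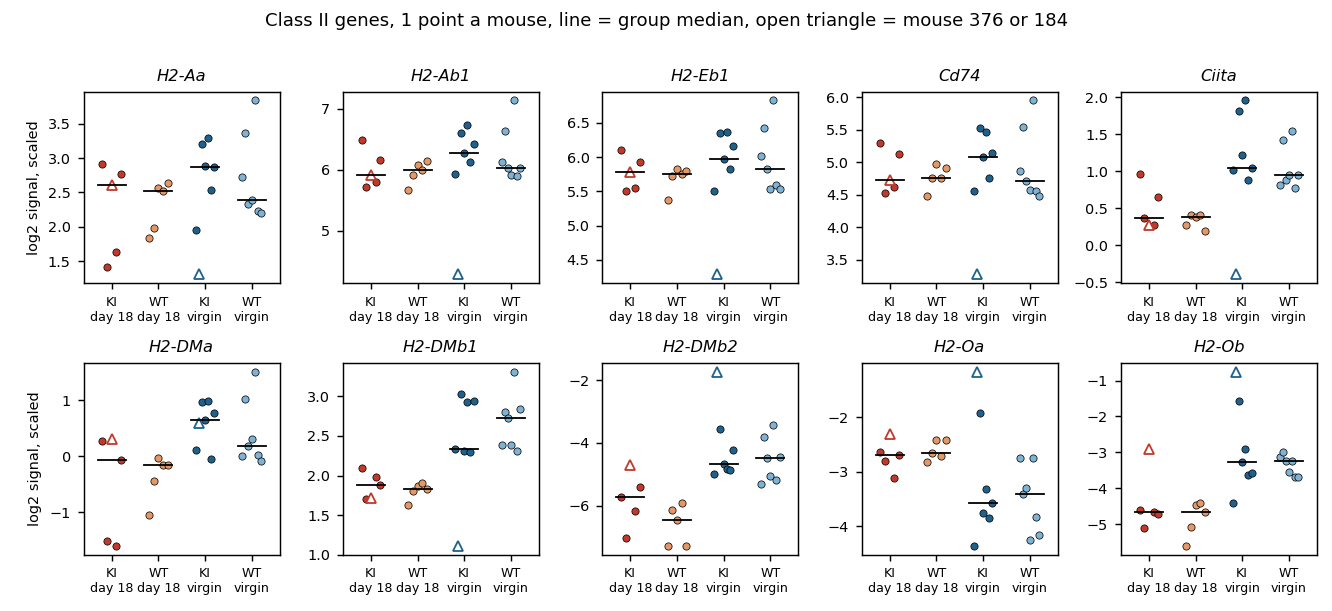
Log2 signal relative to the array's 75th percentile (y) of 10 class II genes in each mouse, by group from left to right (knock-in day 18, wild-type day 18, knock-in virgin, wild-type virgin), with a line at each group's median and open triangles for mice 376 and 184. H2-DMb1 and H2-Ob lie lower at day 18 in wild-type glands with no overlap, while H2-Ab1 overlaps, at 5.66 to 6.14 in wild-type day-18 glands and 5.89 to 7.14 in wild-type virgins.

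Markers of cells that carry class II molecules also differed between the stages. Of 15 macrophage genes, 13 were called lower and 1 higher at day 18 in each genotype, with medians of −1.37 in wild-type and −1.22 in knock-in glands. Of all genes 20.8% were called lower in wild-type and 20.4% in knock-in glands, and 21.0% and 22.6% higher. Adgre1, which encodes the macrophage surface protein F4/80, was lower, at −1.40 and −1.20, Cd68 at −1.37 and −1.33 and Csf1r, the receptor of the macrophage growth factor, at −0.93 and −0.85. Of 11 dendritic cell genes kept from 14 listed, 7 were lower and 1 higher in each genotype, and Xcr1, Cd207 and Ccl22 did not pass the filter. Zbtb46, a transcription factor of dendritic cells, was lower, at −1.39 and −1.19, and Itgax (CD11c) was higher by 1.45 ± 0.23 and 1.83. B cell genes were mixed, with 2 higher and 2 lower of 9 in wild-type and 1 and 4 in knock-in glands. Ptprc (CD45), 1 of 6 genes listed for all leukocytes, was not called (−0.28 and 0.06). The mean of those 6 genes was 0.59 to 1.13 in wild-type day-18 glands, against 1.17 to 2.21 in wild-type virgins, with no overlap. In knock-in glands that mean was 0.65 to 1.26 at day 18, against 0.79 to 2.27 in virgins. The summed macrophage signal, on the same log2 scale, was 6.16 to 7.20 in knock-in and 6.25 to 6.97 in wild-type day-18 glands, against 6.44 to 8.52 in knock-in and 7.15 to 8.52 in wild-type virgins. The summed dendritic signal was 6.51 to 7.04 and 6.41 to 6.90 at day 18, against 4.87 to 6.98 and 6.50 to 6.81. A sum follows its brightest genes, and the mean over the 11 dendritic genes read otherwise. That mean was −1.65 to −0.73 in knock-in and −1.60 to −1.02 in wild-type day-18 glands. In virgins it was −0.73 to 0.10 in knock-in and −0.62 to −0.07 in wild-type glands. The summed B cell signal was 0.39 to 1.12 and 0.47 to 0.82 at day 18, against 0.60 to 2.48 and 0.29 to 1.20. With 22 arrays the range of knock-in virgins was 7.01 to 8.52 for macrophage and 6.56 to 6.98 for dendritic genes. The part of these cells in the class II results was not tested, and in whole tissue fewer cells of a type and less RNA per cell cannot be told apart.

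The other genes of the class II pathway, 24 genes of a fixed list, moved in both directions. In wild-type glands 4 were called higher and 8 lower (50% of the list, against 41.9% of all genes), and in knock-in glands 5 and 9 (58.3% against 43.1%). Irf4, a transcription factor of activated lymphoid and dendritic cells, was lower, at −2.36 ± 0.46 in wild-type (adjusted p = 2.22e-04) and −2.55 in knock-in glands (9.28e-05), and it also stands on the plasma cell list. Spi1 (PU.1), a transcription factor of myeloid and B cells, was lower, at −1.31 ± 0.53 (0.0495) and −1.58 (0.0181). The costimulators Cd40 and Cd86 were lower, Cd40 at −1.98 ± 0.54 (0.00496) and −1.95 (0.00535) and Cd86 at −1.05 ± 0.26 (0.00213) and −0.84 (0.0110). Cd83, a marker of mature dendritic cells, was lower, at −1.04 ± 0.35 (0.0203) and −0.96 (0.0375). Lgmn, a lysosomal protease that processes antigen, was lower, at −1.07 ± 0.29 (0.00512) and −0.74 (0.0459). On the other side, Ifi30, the lysosomal thiol reductase that unfolds antigen, was higher by 1.78 ± 0.27 (1.77e-05) and 1.55 (7.90e-05). Rfxap, a subunit of the complex that binds the X box, was higher by 0.94 ± 0.17 (1.01e-04) and 0.71 (0.00163), while its partner Rfx5 was not called (−0.07 and −0.22). Marchf8, a ubiquitin ligase that acts on class II molecules, was higher by 0.80 ± 0.24 (0.0106) and 0.83 (0.00830). Ctsl, a lysosomal cathepsin, was higher by 0.75 ± 0.28 (0.0327) and 0.93 (0.00898), and Ctss, the cathepsin that trims the invariant chain, was not called (−0.02 and 0.25).

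Class I genes were also split. With 24 arrays, among non-classical chains, Cd1d1, H2-M3 and H2-T24 were lower at day 18 in both genotypes and H2-Q1 was higher. The classical chains H2-K1, H2-D1, H2-K2 and H2-L and the light chain B2m were not called. Of the 31 class I genes kept, 1 was called higher and 6 lower in wild-type glands, and 2 and 4 in knock-in glands. With 22 arrays these counts were 5 and 9 in wild-type and 4 and 9 in knock-in glands. Among the non-classical genes 10 did not pass the filter, H2-M1, H2-M5, H2-M9, H2-T18 and H2-M10.1 to H2-M10.6.

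Cd1d1 encodes the class I-like chain that shows lipids to natural killer T cells (chr3:86799791-86799850). It read 3.41, 3.65, 3.43, 3.54 and 3.29 in wild-type day-18 glands, against 4.53 to 4.96 (median 4.64) in wild-type virgins. No day-18 value reached the virgin range. Knock-in day-18 glands read 3.48, 3.40, 3.51, 3.38 and 3.64, against 2.91 to 4.99 (median 4.96) in knock-in virgins, where the lowest was mouse 376 and the other 6 began at 4.52. The signal was 2.37-fold lower in wild-type (−1.25 ± 0.26, adjusted p = 0.000401) and 2.17-fold lower in knock-in glands (−1.12 ± 0.26, adjusted p = 0.00105). With 22 arrays it was 2.66-fold lower in knock-in glands (−1.41 ± 0.12, adjusted p = 4.62e-09). Within the 3 slides the differences were −1.25, −1.42 and −1.15 in wild-type and −0.59, −1.52 and −1.50 in knock-in glands, and the smallest was −1.19 on that slide without mouse 376.

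H2-M3, which presents peptides that begin with N-formyl methionine (chr17:37411350-37411409), read −0.55, −0.22, −0.24, −0.10 and −0.51 in wild-type day-18 glands, against 0.42 to 1.56 (median 0.81) in wild-type virgins, with no overlap. In knock-in glands it read −0.05, −0.61, −0.31, −0.45 and −0.12 at day 18, against −0.52 to 1.46 (median 0.91) in virgins, and without mouse 376 the virgins began at 0.52. The differences were −1.21 ± 0.26 (adjusted p = 0.000747) and −1.08 ± 0.26 (adjusted p = 0.00193). With median scaling neither H2-M3 nor Cd1d1 was past the threshold in wild-type glands (adjusted p = 0.228 and 0.224). H2-M3 has the TGACG and ATTGG pair shown above, as has H2-K1, which was not called with 24 arrays and was called higher with 22.

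H2-T24 (chr17:36142640-36142699) read −4.23, −3.83, −3.45, −3.51 and −3.59 in wild-type day-18 glands, against −2.88 to −1.0 (median −2.40) in wild-type virgins, with no overlap. Knock-in day-18 glands read −3.30, −3.98, −2.30, −3.62 and −3.43, against −2.84 to −0.22 (median −2.03) in knock-in virgins, where −2.30 is mouse 184 and −0.22 mouse 376. The differences were −1.44 ± 0.36 (adjusted p = 0.00261) and −1.46 ± 0.36 (adjusted p = 0.00219), and with normexp the wild-type difference was −0.47 and not called (adjusted p = 0.125). H2-Q1 (chr17:35461859-35461918) was the 1 member called higher in both genotypes with 24 arrays, and with 22 it was 1 of 4, with H2-T3, H2-K1 and Tap2. It read −2.72, −2.72, −1.99, −2.55 and −2.45 in knock-in day-18 glands, against −7.65 to −3.06 (median −4.07) in knock-in virgins, with no overlap, and in wild-type glands −2.95, −1.94, −1.87, −2.88 and −3.39 at day 18, against −5.53 to −3.22 (median −4.44). The differences were 2.07 ± 0.57 (adjusted p = 0.0049) and 1.82 ± 0.57 (adjusted p = 0.0123), and with spike-in scaling, against medians of all genes of −0.78 and −0.91, they were 1.24 and 0.90 and no longer called.

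H2-K1, the classical K chain (chr17:34133055-34133114), read 8.05, 7.82, 7.83, 8.33 and 7.63 in knock-in day-18 glands, against 5.47 to 7.99 (median 7.52) in knock-in virgins. Wild-type day-18 glands read 7.79, 7.66, 8.09, 7.69 and 7.69, against 7.32 to 7.77 (median 7.39) in wild-type virgins. The ranges met at 7.66 to 7.77 in wild-type glands. Its difference was 0.64 ± 0.28 in knock-in (adjusted p = 0.0684) and 0.32 ± 0.28 in wild-type glands (adjusted p = 0.388), called higher in both with 22 arrays (adjusted p = 0.0382 and 0.0411), and it turned to −0.14 and −0.34 with quantile normalization and −0.19 and −0.60 with spike-in scaling. The dimmer H2-K1 probe gave 0 in knock-in and 0.03 in wild-type glands with 22 arrays and was not called.

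H2-D1, the classical D chain (chr17:35403886-35403945), read 6.07, 5.90, 6.61, 6.31 and 6.44 in wild-type day-18 glands, against 6.10 to 6.95 (median 6.37) in wild-type virgins, and the difference was −0.18 ± 0.33 (interval −0.87 to 0.50). B2m (chr2:121978401-121978460) read 6.68, 6.59, 7.20, 6.80 and 6.88 in wild-type day-18 glands, against 6.44 to 7.16 (median 6.88) in wild-type virgins, and the difference was 0.02 ± 0.27 (interval −0.54 to 0.59). Both overlapped between the stages. Under quantile normalization both were called lower at day 18, H2-D1 at −0.71 in wild-type and −0.66 in knock-in glands and B2m at −0.57 and −0.40. A second B2m probe was called lower in wild-type glands at the 75th percentile scaling (−0.77, adjusted p = 0.00927).

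H2-K2 differed by 0.07 in wild-type and 0.29 in knock-in glands and H2-L at −0.12 and 0.16, neither called.

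Further non-classical chains were called with 22 arrays alone. H2-T10, which some gamma delta T cells recognise, read 1.52, −0.09, 0.61, 0.44 and 0.89 in knock-in day-18 glands, against −0.63 to 2.37 (median 1.52) in knock-in virgins, and was lower with 22 arrays, at −0.90 in knock-in (adjusted p = 0.00536) and −0.64 in wild-type glands (0.0222). H2-T9 was lower, at −0.79 in knock-in (adjusted p = 0.00401) and −0.67 in wild-type glands (0.00623). H2-T3, the TL antigen of thymus and gut, was higher by 0.48 ± 0.17 in knock-in glands (adjusted p = 0.023). In wild-type glands H2-T3 was higher by 0.81 ± 0.34, at an adjusted p of 0.0588 with 24 and 0.000148 with 22 arrays, and spike-in scaling turned it to −0.11 in wild-type and −0.48 in knock-in glands. H2-M11 was called lower in knock-in glands alone, already with 24 arrays and again with 22. With 24 the difference was −0.99 ± 0.38 (adjusted p = 0.0373), against −0.56 ± 0.38 (0.252) in wild-type glands. Within the slides its knock-in differences were −2.16, −0.54 and 0.38 with 24 arrays, and −1.58, −1.46 and 0.38 with 22. The probes of H2-Q7, a Qa-2 chain, were not called in either genotype with 24 or 22 arrays. For H2-T23, the Qa-1 chain that natural killer cells read, the brighter probe, which stands for the gene, was not called in either. The other H2-T23 probe was called higher in wild-type glands, by 0.62, with 24 and with 22 arrays. The genes H2-Bl, H2-Q2, H2-Q4, H2-Q5, H2-Q6 and H2-Q8 were not called with 24 or 22 arrays. H2-T-ps was called higher in wild-type glands with 22 arrays (adjusted p = 0.0438; −0.03 with quantile normalization). H2-Ke6, an H2-region gene that encodes a steroid dehydrogenase and no MHC chain, was lower in knock-in glands with 22 arrays (−0.38, adjusted p = 0.0268). H2-Q7 read 5.16 to 6.40 in knock-in and 5.30 to 6.05 in wild-type day-18 glands, and 3.73 to 6.64 in knock-in and 5.58 to 6.26 in wild-type virgins.

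Among the genes that make and carry class I peptides, with 24 arrays, the proteasome subunits Psmb9 and Psmb10 were called lower at day 18 in wild-type glands and the transporter Tap2 higher in knock-in glands. With 22 arrays these 3 calls were made in both genotypes. Psmb8, Tap1 and Tapbp were not called in either. Psmb9, the immunoproteasome subunit LMP2 (chr17:34319174-34319233), read 1.94, 1.25, 1.77, 2.04 and 2.30 in wild-type day-18 glands, against 2.47 to 3.22 (median 2.78) in wild-type virgins, with no overlap. The difference was −0.92 ± 0.29 (adjusted p = 0.0137). In knock-in glands it was −0.53 ± 0.29 (adjusted p = 0.154), and −0.64 ± 0.22 with 22 arrays (adjusted p = 0.019). A second Psmb9 probe was far dimmer, at −5.49 to −4.49 in wild-type day-18 glands and −6.20 to −5.10 in wild-type virgins. It gave 0.69 in wild-type glands (adjusted p = 0.271, and 0.0415 with 22 arrays), so there the probes of this gene point in opposite directions. In knock-in glands it gave −0.06, and 0.34 with 22 arrays, neither called.

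Psmb10, the subunit MECL-1 (chr8:108459677-108459736), read 3.37, 3.01, 3.37, 3.39 and 3.77 in wild-type day-18 glands, against 3.95 to 4.55 (median 4.07) in wild-type virgins, with no overlap. The differences were −0.78 ± 0.24 (adjusted p = 0.0123) and, in knock-in glands, −0.52 ± 0.24 (adjusted p = 0.0901), which was called with 22 arrays (−0.63 ± 0.18, adjusted p = 0.00645). Psmb8, the subunit LMP7, read 2.82, 2.24, 3.07, 3.03 and 3.15 in wild-type day-18 glands, against 2.60 to 3.27 (median 2.86) in wild-type virgins, and its differences were −0.04 in wild-type and 0.22 in knock-in glands.

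Tap2 (chr17:34353116-34353175) read 4.59, 5.09, 4.03, 5.23 and 4.67 in knock-in day-18 glands, against 2.09 to 4.56 (median 3.98) in knock-in virgins. Wild-type day-18 glands read 4.70, 4.22, 4.66, 4.69 and 4.65, against 4.09 to 4.20 (median 4.18) in wild-type virgins, and mouse 233 was the low one at 4.22. Every wild-type day-18 value was above every virgin value, yet the difference of 0.42 ± 0.28 was not called with 24 arrays (adjusted p = 0.246), and was with 22 (adjusted p = 0.00914). In knock-in glands it was 0.93 ± 0.28 (adjusted p = 0.0104), and 0.82 ± 0.15 with 22 arrays (adjusted p = 6.98e-05, no overlap). Within the slides the knock-in difference was 1.64, 0.36 and 0.48. Spike-in scaling gave −0.50 in wild-type and 0.10 in knock-in glands, neither called. Tap1, the partner of Tap2 in the transporter, differed at −0.17 and 0.30, and Tapbp by 0.04 and 0.36.

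Nlrc5, the class I transactivator (chr8:97051105-97051164), read 0.46, −0.31, 0.15, 0.93 and 0.33 in wild-type day-18 glands, against 0.75 to 1.97 (median 1.09) in wild-type virgins. Only the day-18 value of 0.93 reached the virgin range. The difference was −0.91 ± 0.31 (adjusted p = 0.0196). Knock-in day-18 glands read 1.36, 1.00, 0.49, 1.67 and 0.25, against 0.08 to 2.21 (median 1.28) in knock-in virgins, and the difference of −0.31 ± 0.31 was not called (adjusted p = 0.445, and 0.255 with 22 arrays). The difference between these 2 stage differences was 0.60 ± 0.43 and not past the test (unadjusted p = 0.180).

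**Figure D2:**
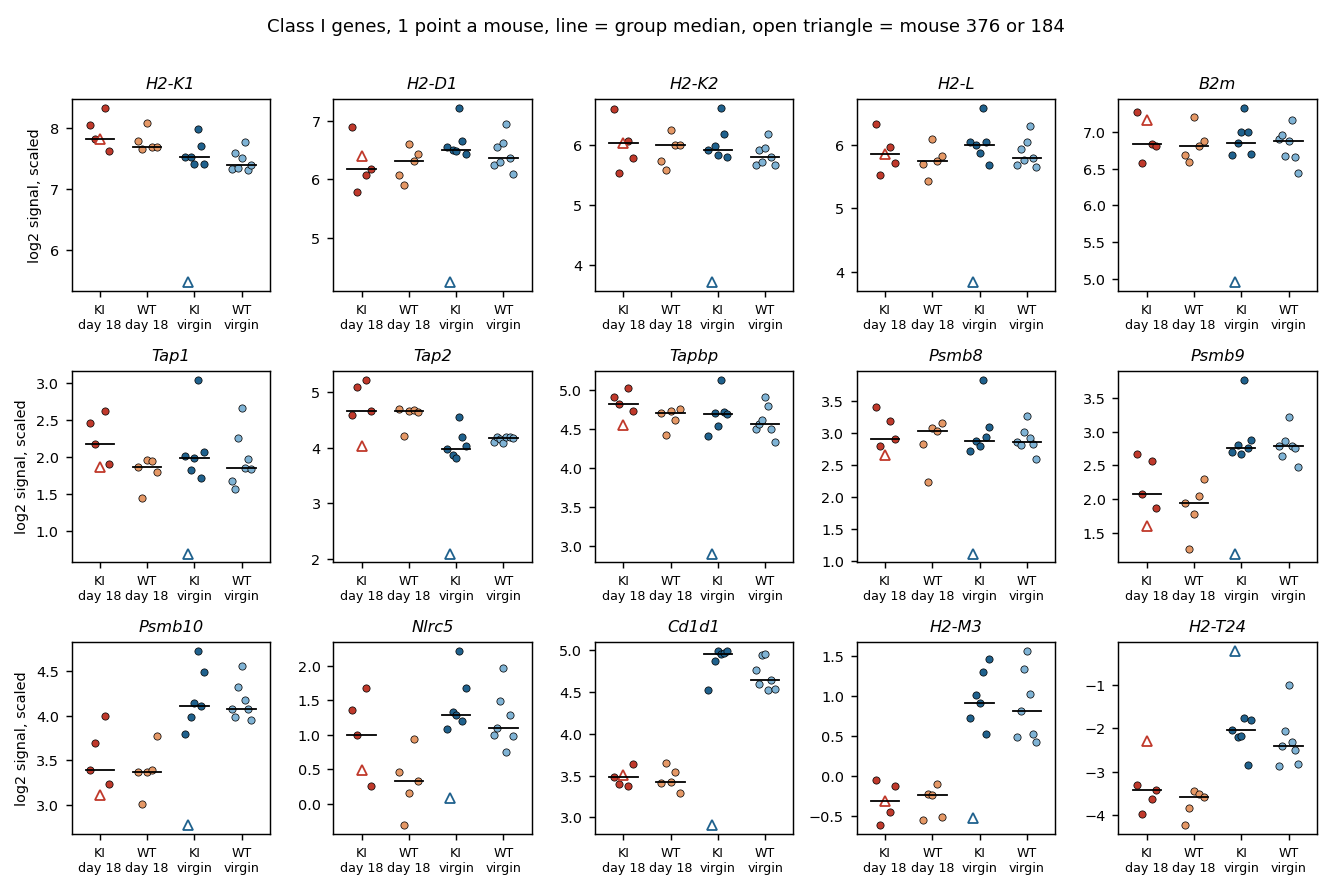
Log2 signal relative to the array's 75th percentile (y) of 15 class I heavy chain, light chain, peptide supply and regulator genes in each mouse, by group from left to right (knock-in day 18, wild-type day 18, knock-in virgin, wild-type virgin), with a line at each group's median and open triangles for mice 376 and 184. Cd1d1 lies at 3.29 to 3.65 in wild-type day-18 glands and 4.53 to 4.96 in wild-type virgins, while the H2-D1 and B2m groups overlap.

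Other class I pathway genes, 26 on the array from a fixed list, gave 1 higher and 4 lower in wild-type glands (19.2%, against 41.9% of all genes) and 4 and 4 in knock-in glands (30.8% against 43.1%). The 4 lower genes in wild-type glands were class I-like chains. Cd1d2, the neighbour and copy of Cd1d1, averaged −0.52 ± 0.58 in knock-in and −0.50 ± 0.32 in wild-type day-18 glands, against 1.76 ± 0.61 in knock-in and 1.77 ± 0.13 in wild-type virgins (n = 5, 5, 7 and 7), with differences of −2.28 (adjusted p = 3.86e-07) and −2.27 ± 0.26 (4.65e-07). Fcgrt, the heavy chain of the neonatal Fc receptor that carries IgG across cells, was lower, at −2.32 in knock-in (3.13e-05) and −1.94 ± 0.38 in wild-type glands (2.39e-04). Hfe, the class I-like regulator of iron uptake, was lower, at −1.87 (2.15e-06) and −1.54 ± 0.23 (1.79e-05). Procr, the endothelial protein C receptor, was lower, at −1.28 (0.00293) and −1.38 ± 0.33 (0.00163). Sec61a1, the channel of the endoplasmic reticulum, was higher by 1.51 (2.38e-05) and 1.35 ± 0.24 (8.95e-05). Markers of other cell types differed too, with 5 of 8 adipocyte genes called lower in each genotype and 6 of 8 blood vessel genes in knock-in and 5 in wild-type glands. Of all genes 20.4% were called lower in knock-in and 20.8% in wild-type glands. Other lists had a higher mean at day 18. Luminal epithelium went from 1.13 in virgins to 3.96 in knock-in and from 2.26 to 3.93 in wild-type glands. Basal and myoepithelium went from 1.82 to 3.81 and from 2.37 to 3.94. T and natural killer cell genes went from −1.29 to −0.71 and from −1.77 to −0.95, and plasma cell genes from −0.77 to 0.40 and from −0.49 to 0.29. The part of these cell types was not tested.

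**Figure D3:**
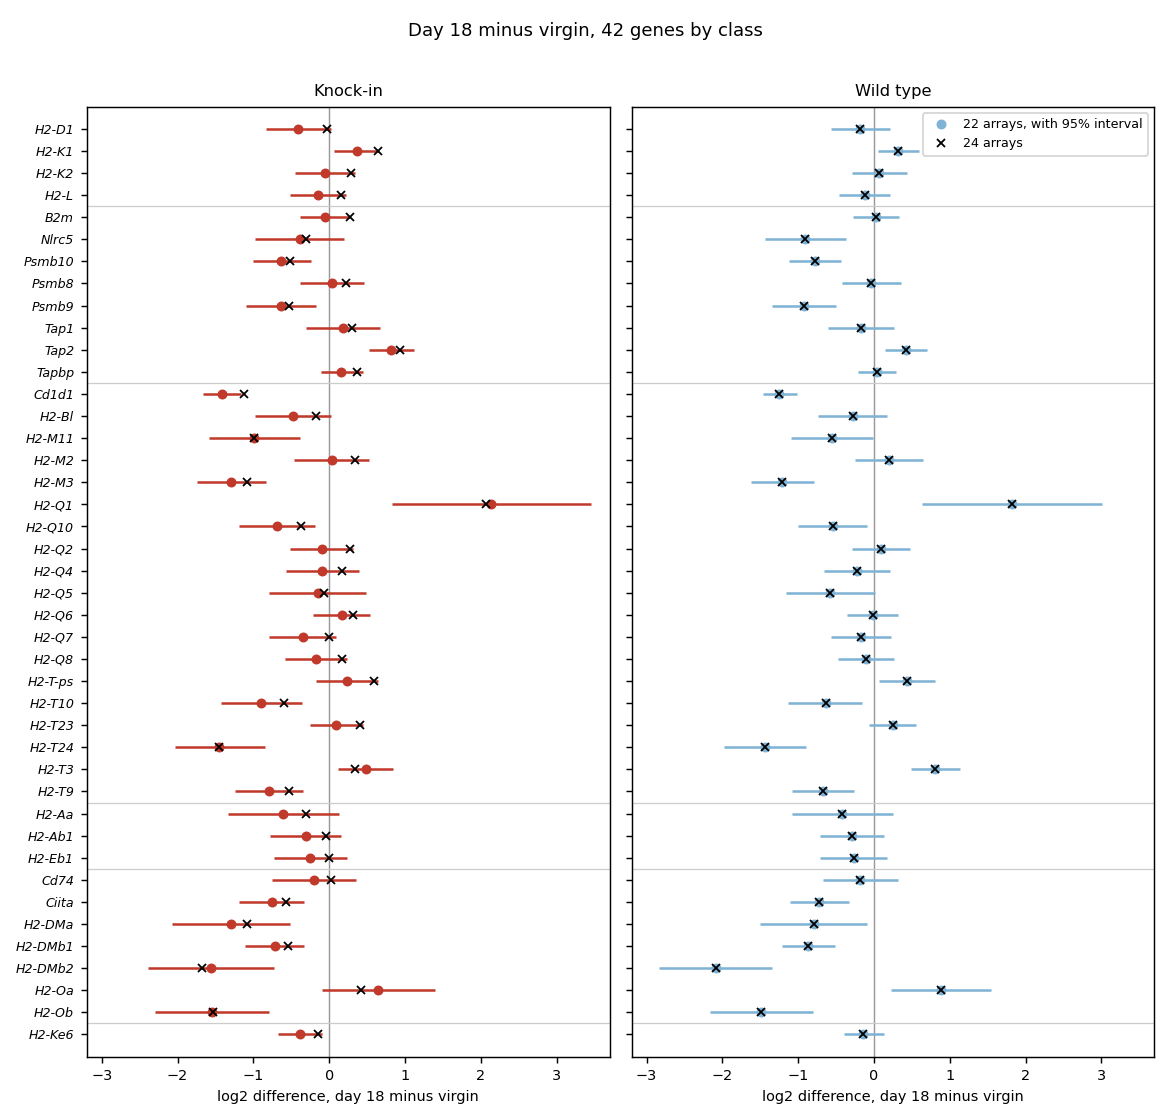
Log2 difference between day-18 and virgin glands (x) of the 42 genes kept, grouped by class (y), in knock-in (left) and wild-type glands (right). Dots with bars are 22 arrays with their 95% intervals and crosses are 24 arrays; H2-Q1 lies farthest to the right in both panels (2.07 and 1.82 with 24 arrays).

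Probes of the same gene disagreed most for H2-Q10 and H2-M2. H2-Q10 is a secreted class I chain known from liver, and its 4 probes lie at chr17:35607907-35607966, chr17:35610036-35610095, chr17:35611365-35611424 and chr17:35611449-35611508. The first of these stands for the gene, and with 24 arrays neither it (−0.37 in knock-in and −0.54 in wild-type glands) nor the second (−0.25 and −0.04) was called; with 22 arrays the gene was called lower on its first probe (−0.69, adjusted p = 0.0199, and −0.54, adjusted p = 0.0381). The third and the last were called lower at day 18, at −2.94 and −3.08 in knock-in glands (adjusted p = 3.42e-06 and 1.33e-06 over all probes) and at −1.54 ± 0.40 and −1.56 ± 0.39 in wild-type glands (0.00334 and 0.00239). Over all member probes 16 of 66 were called in knock-in and 18 in wild-type glands, against 39.4% and 38.8% of all probes. With 22 arrays these were 28 and 30, against 52.4% and 56.0%.

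The third H2-Q10 probe read 0.51, 0.21, 0.42, −1.48 and 0.15 in knock-in day-18 glands, against 0.84, 1.72, 1.31, 0.61 and 1.62 in wild-type day-18 glands. No knock-in value reached the lowest wild-type value. The difference between genotypes was −1.26 ± 0.43, with an unadjusted p of 0.00738 and an adjusted p of 1.00, and with 22 arrays −1.37 ± 0.37 (0.00120, adjusted 0.466). The last probe read 0.30, 0.18, 0.56, −1.93 and 0.08 in knock-in and 0.80, 1.77, 1.32, 0.42 and 1.47 in wild-type day-18 glands, with overlap through 1 mouse on each side and a difference of −1.32 ± 0.42 (0.00432, adjusted 1.00). Neither is a call, since 0% of all probes passed the test between genotypes at day 18. The first and second H2-Q10 probes gave 0.09 and −0.28 between genotypes at day 18 with 22 arrays.

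H2-M2, a non-classical class I gene, had 2 probes. The first (chr17:37618042-37618101) read 0.16, 0.87, −0.35, 1.5 and 0.04 in knock-in day-18 glands, against −5.49 to −1.08 in knock-in virgins, the highest being mouse 376. In wild-type glands it read 0.47, −0.08, −0.54, 0.47 and 0.00 at day 18, against −5.14 to −1.33 in virgins. Neither genotype's stages overlapped. The differences were 4.38 ± 0.65 (adjusted p = 1.20e-05) and 3.63 ± 0.65 (1.13e-04). The second probe (chr17:37618259-37618439), the brighter one, which stands for the gene, was not called (0.34, adjusted p = 0.401, and 0.20, adjusted p = 0.644). Which transcript each probe reads cannot be told from these files.

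**Figure D4:**
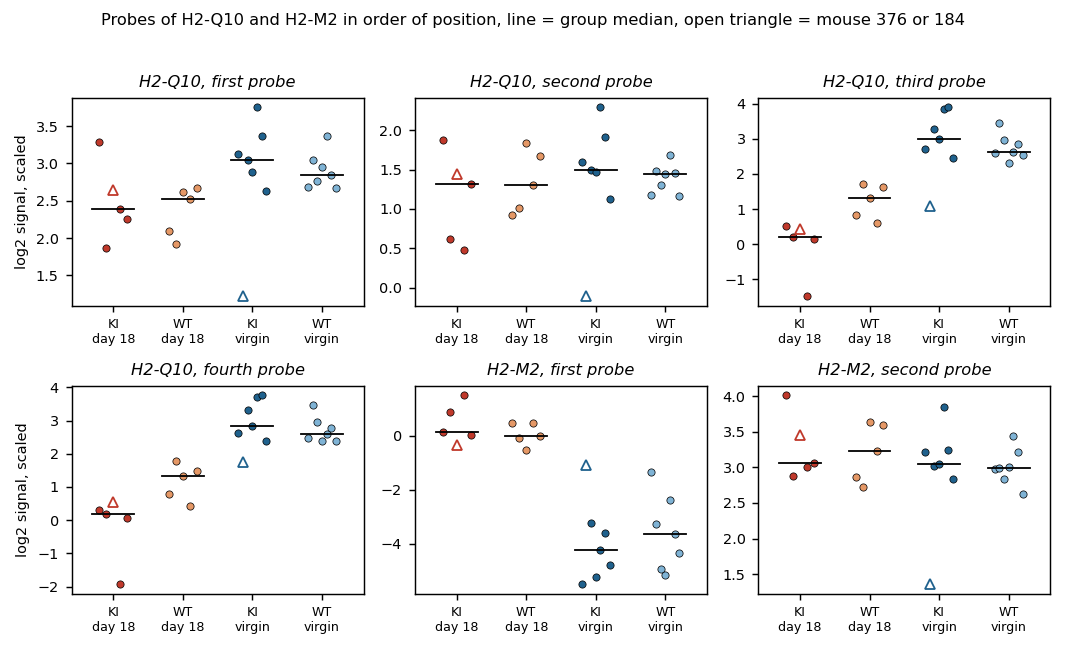
Log2 signal relative to the array's 75th percentile (y) of the 4 H2-Q10 and 2 H2-M2 probes, in order of position, in each mouse, by group from left to right (knock-in day 18, wild-type day 18, knock-in virgin, wild-type virgin), with a line at each group's median and open triangles for mice 376 and 184. The third and last H2-Q10 probes are lower and the first H2-M2 probe higher at day 18, while the other 3 probes of these genes were not called with 24 arrays.

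Class II genes also varied together from mouse to mouse within a group. The mean of H2-Aa, H2-Ab1, H2-Eb1 and Cd74 was set against each other member over 22 arrays, after subtracting each group's mean. Pearson's r was highest, outside these 4 genes, at 0.91 for H2-DMa, 0.81 for Ciita, 0.74 for H2-DMb1, 0.71 for B2m, 0.69 for H2-DMb2 and 0.67 for both H2-D1 and H2-Oa. It was 0.02 for Cd1d1, 0.01 for Psmb10 and −0.13 for Nlrc5, and −0.59 for H2-Q4. Over the marker lists the median r was 0.52 for dendritic cell, 0.40 for macrophage, 0.38 for adipocyte, 0.37 for B cell, 0.34 for T and natural killer cell and 0.25 for blood vessel genes, and −0.66 for milk proteins. Over 24 arrays, without that subtraction, it was highest for H2-D1 (0.84), H2-Q7 (0.82) and Ciita (0.80). All points of a mouse share its array and its scaling, so these values describe the arrays only. The mouse that ranked highest or lowest was often the same one across a class. In wild-type day-18 glands mouse 234 was lowest for 8 of the 10 class II genes and mouse 233 for 23 of the 31 class I genes. In knock-in virgins mouse 376 was lowest for 27 of the 31 class I genes and mouse 251 highest for 24.

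Between knock-in and wild-type glands no MHC or antigen presentation gene was called, in virgins, at day 18, in the average over the stages or in the difference between the stages. In each of these comparisons 0 of 42, each read on the probe that stands for it, were called by limma with 24 arrays, where 0% of all genes were. Of the 42, 0 had an unadjusted p under 0.05, where 437 of all 22382 genes had at day 18 and 803 in virgins. With 22 arrays 0 of 42 were called again; at day 18, 2 of all genes were, or 0.00894%, both lower and neither a member. There 1 member, Nlrc5, had an unadjusted p under 0.05, where 2098 of all 22382 genes had. In the average over the stages Nlrc5 and H2-Q6 had, where 1467 of all genes had. In virgins and in the difference between the stages no member had, where 753 and 1407 of all genes had. On the probe that stands for each gene, no member's knock-in values lay wholly to one side of the wild-type values at either stage. On the third H2-Q10 probe above, which does not stand for the gene, they did at day 18 (unadjusted p = 0.00738 in limma's fit, not called).

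At day 18 the 42 differences ran from −0.20 to 0.82 with 24 arrays, with a median half-width of their 95% intervals of 0.69. In virgins they ran from −0.37 to 0.63, with a median half-width of 0.58. For H2-Ab1 the interval was −0.64 to 0.75 at day 18 and −0.78 to 0.39 in virgins. At day 18 it was −0.48 to 0.77 for H2-K1, −0.56 to 0.59 for Cd1d1, −0.51 to 0.71 for B2m and −0.21 to 1.00 for Tap1. Differences of 1, or 2-fold, were thus outside the interval for these genes except Tap1, whose upper end lay at that size. Differences inside an interval could not be told from none with these arrays. The largest value at day 18, 0.82 for H2-DMb2, is of a gene that was not well above background on any day-18 array.

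Nlrc5 had the smallest unadjusted p at day 18 with 22 arrays among the 42 genes, each on the probe that stands for it. The third H2-Q10 probe had a smaller one, 0.00120 in limma's fit. Nlrc5 read 1.36, 1.00, 0.49, 1.67 and 0.25 in knock-in day-18 glands, against 0.46, −0.31, 0.15, 0.93 and 0.33 in wild-type day-18 glands, and the groups overlapped. The difference in limma's fit was 0.64 ± 0.33 with 24 arrays (interval −0.04 to 1.32, unadjusted p = 0.0651, adjusted 1.00) and 0.75 ± 0.30 with 22 (0.14 to 1.37, unadjusted p = 0.0187, adjusted 0.463). Within the slides it was 0.80, 0.67 and 0.73.

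**Figure D5:**
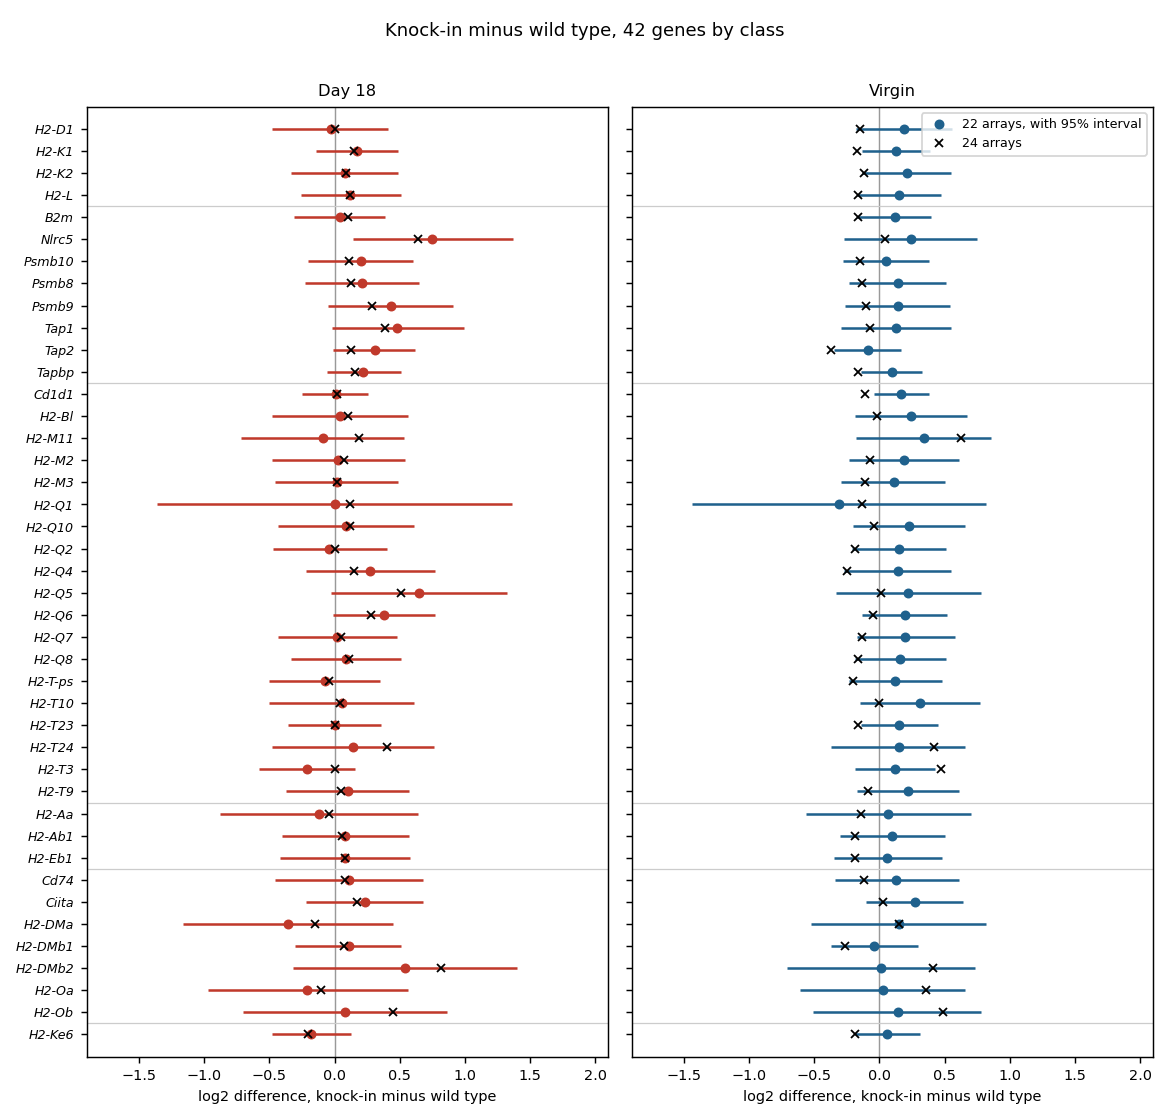
Log2 difference between knock-in and wild-type glands (x) of the 42 genes kept, grouped by class (y), at day 18 and in virgins. Dots with bars are 22 arrays with their 95% intervals and crosses are 24 arrays; the day-18 differences ran from −0.20 to 0.82 with 24 arrays, and no gene was called at either stage.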

How the data were processed

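Total RNA was labelled with Cy3 and hybridised to a 1-colour mouse 60K array, per the labels' protocols (a label field also says polyA RNA). The authors scanned the arrays and extracted them with Agilent Feature Extraction 12.0.3.2, per the file headers and the submitters' processing notes. The deposited text files hold each of 62976 spots' intensity, background-subtracted within the array and not scaled between arrays, with coordinates on mm9. The deposited series matrix holds log10 values of the same signals (correlation with them at least 0.999985) and served as an alternative. The authors' scaling between arrays is not given in the sources used.

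From these, outlier spots were set missing, replicate spots were averaged, and log2 signals had each array's 75th percentile subtracted. A probe was kept if at least 80% of some group's arrays read it well above background, and the brightest kept probe stood for its gene. Of the probes, 35405 were named through their accession, 9124 by symbol, 25 by a synonym and 12051 as in the file. Group means were fitted with limma 3.58.1 (R 4.3.3, data.table, version 1.17.8) to 24 arrays, and again to 22, with Benjamini-Hochberg adjustment over all genes kept. The steps were tested on simulated data. The comparisons were day 18 against virgin in each genotype, knock-in against wild type at each stage, their average and the difference between them. Each mouse is 1 sample, and the number of mice limits the precision. The genes named were to be all members called, the chains, partners and regulators of each class and probes that disagree. The members, the lists and the mice left out were chosen with earlier results of these data known. Alternatives were normexp, quantile, median and spike-in scaling, filters, the slide as a block, the mean of a gene's probes, array weights, the series matrix, the groups alone and leaving out mice.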

Additional observations from a re-analysis of the deposited data

Results flagged for a closer look

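A value was singled out where the highest or lowest mouse of a group lay farther from its neighbour than Dixon's 95% limit allows. Chance does this in about 1 in 20 groups, and 31 of the 168 groups tested, or member gene by group combinations, had such a value.

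Of these, 27 were knock-in virgin 376, whose array had the high background given above. This mouse was lowest among knock-in virgins for the chains H2-Ab1 (4.28), H2-Eb1 (4.29), H2-D1 (4.24), H2-K1 (5.47), H2-K2 (3.72) and H2-L (3.84). It was lowest for the partners B2m (4.96), Cd74 (3.28), H2-DMb1 (1.11), Psmb8 (1.12), Psmb9 (1.19), Tap2 (2.09) and Tapbp (2.90). Among non-classical chains it was lowest for Cd1d1 (2.91), H2-M2 (1.36), H2-Q2 (3.65), H2-Q4 (3.24), H2-Q6 (3.03), H2-Q7 (3.73), H2-Q8 (2.53), H2-T10 (−0.63), H2-T23 (3.76), H2-T9 (0.73) and H2-T-ps (3.30), and for H2-Ke6 (1.73). It was highest for the dim genes H2-T24 (−0.22) and H2-T3 (−0.35).

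The other 4 values came from different mice at day 18. Knock-in mouse 184 was highest for H2-Ob (−2.91). Wild-type mouse 234 was lowest for H2-Eb1 (5.37), mouse 233 was lowest for Tap2 (4.22) and mouse 206 was highest for H2-T-ps (6.34).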

How the results depend on the processing

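The counts of members called between the stages, 9 in knock-in and 11 in wild-type glands, depended on the arrays and the scaling. Without mice 376 and 184 they were 19 and 20, and 18 and 19 without mouse 198 as well. They were 22 and 21 with array weights, 20 in each genotype with quantile normalization, 4 and 6 with median scaling and 23 and 34 with spike-in scaling. The 2 wild-type groups fitted alone gave 22. The share of all genes called under these settings is not given here, so these counts do not set members beside other genes. Leaving out 1 mouse at a time gave 7 to 18 in knock-in and 8 to 19 in wild-type glands. Leaving out mouse 376 gave the highest count in both, where 55.1% of all genes were called in knock-in and 57.3% in wild-type glands. Member probes called in knock-in glands numbered 10, against 16, where a probe had to be well above background on all 24 arrays. The other alternatives kept the counts within 1.5 times, and 0 members were called between genotypes by limma under any alternative run. Of the gene and alternative pairs, 9010 kept their side of the threshold, 48 lost the call, 153 gained one and 11 changed sign with a call on one side or the other. Values called on neither side, such as those of H2-K1 given above, could change sign among the 9010.

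Those 11 were, with quantile normalization, B2m (−0.57 in wild-type, −0.40 in knock-in glands), H2-L (−0.45, knock-in) and H2-Q7 (−0.59, knock-in). With spike-in scaling they were B2m (−0.90), H2-K2 (−0.85), H2-Q2 (−0.83) and Tapbp (−0.88) in wild-type and Cd74 (−0.80) in knock-in glands. H2-Q7 gave −0.50 in knock-in glands with array weights, and H2-DMb2 0.05 in wild-type glands with normexp. The cause was not tested. Of all calls, 47.5% in knock-in and 49.7% in wild-type glands were lower at day 18, against 34.8% and 36.7% with normexp and 89.5% and 92.3% with spike-in scaling. No paired analysis was possible because the mouse numbers in the labels all differ. Low signals near background, such as those of H2-DMb2, limit what can be said of dim genes.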
